A study of Homo sapiens with 14 samples.

Results

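Promoter regions that carried both phosphorylated JUN and H3K4me3 were examined in LX-2, an immortalised line of human hepatic stellate cells, the liver cells that lay down scar matrix in fibrosis. The regions were found by joining the p-JUN peaks of 4 libraries wherever they shared at least 1 bp, which gave 61411 regions. Of these, 40433 were called in all 4 libraries and 7364 of those lay within 1000 bp of the start of a protein-coding transcript. An H3K4me3 peak in all 4 H3K4me3 lists was required next, which left 6037 regions, and 46 with an H3K27me3 peak in any list were dropped. The remaining 5991 regions are called marked promoters below. They were chosen by the p-JUN, H3K4me3 and H3K27me3 calls, which are therefore no findings about them.

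The study asked how the stiffness of the matrix under the cells changes chromatin, and profiled it by CUT&Tag, in which an antibody guides the Tn5 transposase to cut and tag DNA beside its target. Wild-type LX-2 cells grew on soft or on stiff matrix for 2 days, and the labels and the methods give different numbers of cells for each assay. There were 2 libraries on soft and 2 on stiff for each of p-JUN, H3K4me3 and H3K27me3, and 1 merged list on soft and 1 on stiff for H3K27ac, which therefore has no replicate error. The titles name the soft matrix 2K and the stiff matrix of the histone libraries 40K, but the 2 stiff p-JUN libraries carry TCP, which the study uses for tissue culture plastic. A p-JUN difference between stiff and soft is thus one between libraries labelled stiff and soft, and a stiff gel and plastic cannot be told apart in it. All samples are of 1 cell line, and the labels do not say whether the 2 libraries of a group came from separate cultures, so their spread may be technical.

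JUN is a bZIP protein that pairs with FOS, ATF or another JUN protein to form the dimers called AP-1. JNK can phosphorylate its activation domain after stress, growth factors or mechanical load. On stiff matrix, the study reported less p-JUN after an ERK inhibitor and no effect of JNK or p38 inhibitors. Dimers of JUN and FOS prefer the sequence TGACTCA, and dimers of JUN and ATF proteins or of CREB prefer the longer TGACGTCA, the cAMP response element or CRE. H3K4me3 marks the nucleosomes around active transcript starts, H3K27ac marks active promoters and enhancers, and H3K27me3 is the mark of Polycomb silencing.

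The first 5 sequences below are from marked promoters that held one of the motifs within 50 bp of the p-JUN summit in all 4 libraries. Among such promoters these 5 had the highest mean rank of p-JUN fold. The other 9 are examples from the lists of contractile, matrix, YAP, TGF-beta, AP-1 and respiratory genes. They also held a motif at all 4 summits. MYL6, LTBP3 and ID1 of these lists did so too and are not shown. Capitals mark each match to TGACTCA or TGACGTCA, coordinates are of hg19, and a sequence on the minus strand is written as its reverse complement. Windows that overlapped an annotated exon are shown with 30 bases or fewer.
PSTK, chr10:124740152-124740181, plus strand: gtcgcgtatgaTGACGTCAtgcccgacgcg
VPS35L, chr16:19566720-19566748, plus strand: ctttacaatcaTGACTCAtagaaactacg
AHCYL1, chr1:110546632-110546692, plus strand: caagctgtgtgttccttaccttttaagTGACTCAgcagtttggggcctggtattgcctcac
ADNP2, chr18:77866862-77866923, plus strand: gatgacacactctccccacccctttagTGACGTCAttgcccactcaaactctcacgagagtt
KICS2, chr12:64616339-64616400, plus strand: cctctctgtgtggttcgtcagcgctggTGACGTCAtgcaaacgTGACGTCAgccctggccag
VIM, chr10:17270514-17270542, minus strand: gtcaccggcggTGACTCAccgcgccctgc
VCL, chr10:75759082-75759142, plus strand: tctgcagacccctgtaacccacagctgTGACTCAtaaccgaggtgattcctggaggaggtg
ZYX, chr7:143078071-143078099, minus strand: tgcccgagatcTGACTCAccgtccccctc
TAGLN2, chr1:159894401-159894461, minus strand: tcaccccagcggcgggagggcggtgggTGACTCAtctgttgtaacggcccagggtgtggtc
P4HA2, chr5:131631010-131631070, minus strand: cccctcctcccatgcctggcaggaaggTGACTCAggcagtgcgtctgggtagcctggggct
F3, chr1:95007508-95007536, plus strand: cctgcaagggaTGACTCAccccagtgatt
SKIL, chr3:170075438-170075467, plus strand: cgaggactcggTGACGTCAgagggctgtgt
MAFG, chr17:79884816-79884876, plus strand: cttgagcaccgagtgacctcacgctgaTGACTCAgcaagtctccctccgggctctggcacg
CYCS, chr7:25165130-25165191, plus strand: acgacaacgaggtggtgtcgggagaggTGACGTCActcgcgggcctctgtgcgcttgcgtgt

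Distances are to the nearest annotated start. The motif of VPS35L, a subunit of an endosomal recycling complex, lay 3 bp before the start, and the one of AHCYL1, which binds the IP3 receptor, lay 91 bp before it. In PSTK, the kinase that prepares the selenocysteine tRNA, the CRE lay 171 bp after the start. KICS2, part of the complex that ties mTORC1 to amino acid supply, had 2 CREs whose first bases were 16 bp apart. The motif of VCL, which encodes the adhesion protein vinculin, lay 1238 bp after the nearest start, although its region reached to within 1000 bp of it. Since regions were shown for a motif within 50 bp of all 4 summits, a short distance between summit and motif was set by that choice. In AHCYL1 it was 26 bp in each of the 4 libraries, and in CYCS, which encodes cytochrome c, it was 40 bp in each.

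Over all marked promoters, these 2 motifs were present at few of the summits and the CRE was more frequent than at distal sites. TGACTCA on either strand lay within 50 bp of the summit at 6.34% and 6.41% of marked promoters in the soft libraries and at 5.64% to 6.38% in the stiff ones. At the 33069 distal regions, those called in all 4 libraries and further than 1000 bp from a start, the share was 38.9% to 40.1%. Windows 1 kb to either side of the marked promoter summits held it in 1.17% to 1.41%. The CRE was at 2.69% to 3.32% of marked promoters, at 0.448% to 0.472% of distal regions and at 0.025% to 0.0668% of the windows 1 kb away. In soft library 1 the AP-1 share at marked promoters had a Wilson 95% interval of 5.75% to 6.99% and the CRE share one of 2.82% to 3.72%. Such intervals cover counting error only.

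The matrix did not separate these shares beyond the spread of the libraries. The AP-1 share was 6.38% ± 0.0472 on soft and 6.01% ± 0.519 on stiff (SD, n = 2 each, two-sided exact permutation test, p = 0.67). The CRE share was 3.24% in both soft libraries and 3.0% ± 0.449 on stiff (exact permutation p = 1.0). With 2 libraries against 2, the smallest p that this test can give is 0.33.

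Among motifs of general promoter factors, those of SP1, ETS factors and YY1 were more frequent at marked promoters than at distal p-JUN regions, the NF-Y box was about as frequent and TATAAA less frequent. GGGCGG, the box bound by SP1 and its relatives, was within 50 bp of 30.5% to 32.0% of marked promoter summits against 2.88% to 3.1% of distal ones, and was in 8.5% to 8.67% of windows 1 kb from the promoter summits. CCGGAAG, the core bound by ETS factors, was at 4.26% to 4.76% against 0.559% to 0.65%. CCAAT, the NF-Y box, was at 12.8% to 13.0%, beside 12.6% to 13.0% of distal regions and 11.9% to 12.4% of the windows 1 kb away. GGAATG, the TEAD motif, was at 4.12% to 4.92%, below the 10.7% to 11.1% of distal regions and also below the 5.42% to 5.59% of windows 1 kb away. TATAAA was at 0.818% to 0.951%, against 4.89% to 5.19% of distal regions and 6.28% to 6.48% of windows 1 kb away. The YY1 motif AAGATGGCG was at 0.818% to 0.985%, with distal shares of at most 0.0393%. All motifs were searched as exact letters on both strands, and 1 window could hold several of them.

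**Figure D1:**
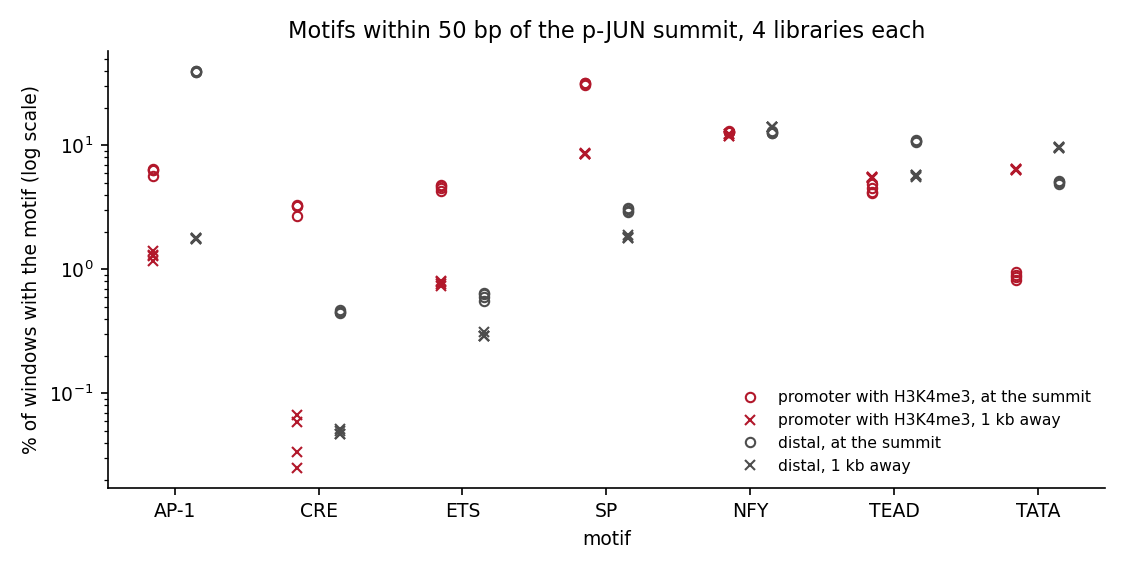
Share of windows of 50 bp to each side that hold each motif on either strand, on a log axis, at the p-JUN summit (circles) and 1 kb to either side (crosses), for marked promoters (red) and distal regions (grey), 1 point for each of the 4 p-JUN libraries. AP-1 lies at 5.64% to 6.41% at marked promoters and 38.9% to 40.1% at distal regions. The CRE lies at 2.69% to 3.32% and 0.448% to 0.472%. Points of soft and stiff libraries lie close together, without overlap for some motifs.

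Base composition moved with these shares. The sequence 100 bp to each side of the summit had a median of 65.2% to 65.7% G and C at marked promoters and 46.3% at distal regions. The ratio of CpG observed over expected was 0.773 to 0.787 against 0.184 to 0.185. By a limit of at least 50% G and C and a ratio of at least 0.6, 74.3% to 76.1% of marked promoters and 2.62% to 2.72% of distal regions were CpG-rich. Its part in the motif shares was not tested.

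The same windows were also placed on a transcript start instead of the summit. It was the start nearest to the p-JUN region for marked promoters, and nearest to the H3K4me3 region for promoters without p-JUN. These anchors are not alike, and their part in the shares was not tested. The start nearest to a marked promoter held TGACTCA in 106 of 5991 cases, or 1.77% (Wilson 95% interval 1.47% to 2.14%). At the 3544 promoters with H3K4me3 in all 4 lists, no H3K27me3 and no p-JUN peak in any library, it was in 11, or 0.31% (0.173% to 0.555%). The CRE was at 2.24% (1.89% to 2.64%) and 0.339% (0.194% to 0.591%). GGGCGG was at 42.3% and 43.5%, and CCGGAAG at 9.28% and 7.87%. At all 78564 protein-coding start positions, TGACTCA was within 50 bp of 1.31% and TGACGTCA within 50 bp of 0.895%. The intervals of promoters with and without p-JUN did not overlap for TGACTCA, TGACGTCA or CCAAT, the last at 11.3% against 6.97%, and overlapped for GGGCGG and CCGGAAG.

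Marked promoters with a motif at all 4 summits had more p-JUN fragments at the median than those with neither motif. A fragment count at the summit could be recovered from each peak's fold and p-value. The 211 regions with TGACTCA at all 4 summits had median counts of 201 and 173 on soft, with 162 and 186 on stiff. The 111 with the CRE had 136, 117, 98 and 118 in the same order. The 5191 regions with neither motif in any library, 86.6% of the marked promoters, had 58, 51, 42 and 56. The order of the 3 medians was the same in 4 of 4 libraries. On the fold scale they were closer, at 9.17 to 9.63 for AP-1, 10.1 to 11 for the CRE and 7.04 to 8.16 for neither.

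The 2 motif groups also differed in place. The median distance between summit and start was 307 bp with TGACTCA, 104 bp with the CRE and 163 bp with neither. Where TGACTCA was present, the summit lay a median of 28 bp from its centre in each of the 4 libraries, against 26 or 27 bp at distal regions. The longer palindrome ATGACTCAT made up 5.0% to 7.03% of the sites nearest the summit at marked promoters and 12.5% at distal regions. A second TGACTCA within 50 bp of the summit was found at 4.47% to 5.92% of those marked promoters and at 9.32% to 9.54% of those distal regions.

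The p-JUN signal, which took part in the choice of the regions, is given as a description. The median fold over the local background was 7.74 and 7.75 on soft compared with 7.18 and 8.24 on stiff, against 9.0, 8.93, 8.92 and 9.72 at distal regions. The median number of fragments at the summit was 62 and 54 on soft, with 45 and 59 on stiff, against 86, 74, 80 and 91. Marked promoters were lower than distal regions in 4 of 4 libraries on both scales. They were wider, with a median of 860 bp against 672 bp. The low fold was not particular to them. Promoter p-JUN regions without H3K4me3 had a median fold of 7.8 and 7.74 on soft, with 7.79 and 8.4 on stiff. Their median fragments were 92, 79, 80 and 92. Ranked by fold among all 40433 regions, 585 marked promoters, or 9.76%, were in the highest 25% and 1957, or 32.7%, in the lowest 25%.

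**Figure D2:**
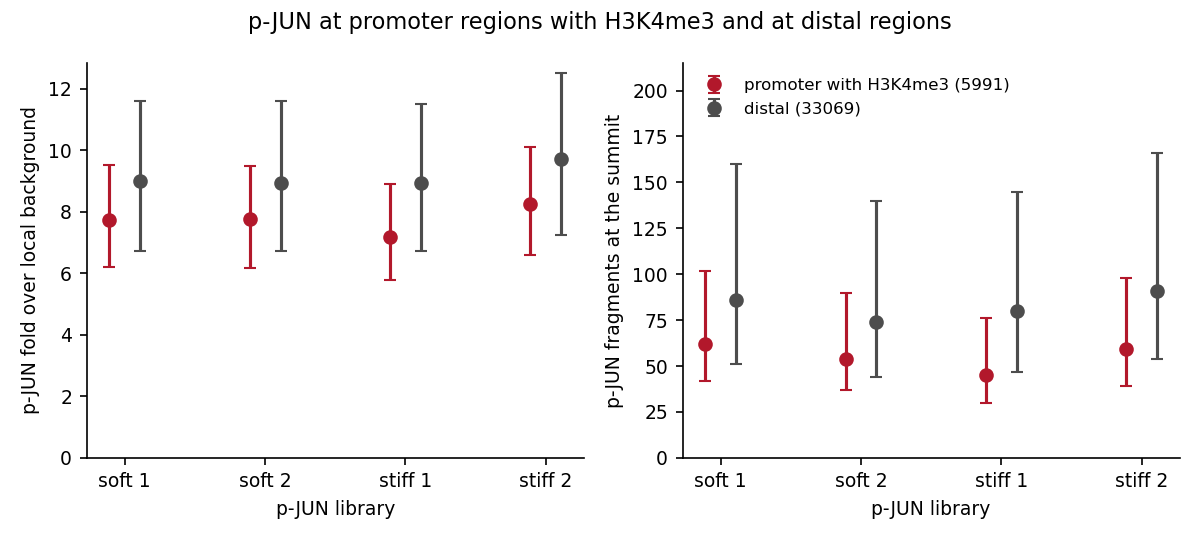
Median p-JUN fold over local background (left) and median p-JUN fragments at the summit (right) in each library, with bars from the lower to the upper quartile, for 5991 marked promoters (red) and 33069 distal regions (grey). Marked promoters have the lower median in all 4 libraries on both scales, 7.18 to 8.24 against 8.92 to 9.72 in fold and 45 to 62 against 74 to 91 in fragments, and their quartiles overlap those of the distal regions.

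The p-JUN summits lay around and just upstream of the start, while the H3K4me3 summits lay inside the gene. The median p-JUN summit was 42 and 40 bp upstream on soft and 41 and 36 bp upstream on stiff. Between 54.9% and 56.8% of summits were upstream, 30.8% to 31.6% lay within 100 bp and 87.1% to 87.8% within 500 bp. The H3K4me3 summit of the same promoters had its median 169 and 183 bp into the gene on soft and 162 and 174 bp on stiff. The medians of the 2 targets lay on opposite sides of the start in every library, and those of soft and stiff overlapped for each target. The p-JUN summit was less fixed at marked promoters than elsewhere, since the 4 libraries' summits of 1 region spanned a median of 113 bp against 52 bp at distal regions.

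**Figure D3:**
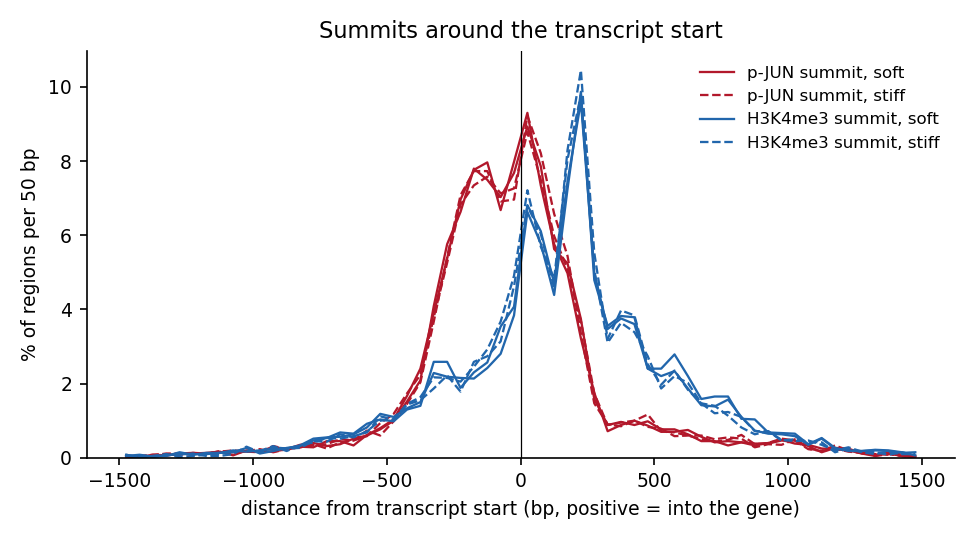
Share of the 5991 marked promoters whose p-JUN summit (red) or H3K4me3 summit (blue) falls in each 50-bp bin around the nearest protein-coding transcript start, with positive distances into the gene; full lines are the soft and dashed lines the stiff libraries. The p-JUN summits spread around the start, with medians of 36 to 42 bp upstream, and the H3K4me3 summits peak in the bin centred 225 bp into the gene.

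The 10 regions with the highest mean rank of fold over the 4 libraries were at PSTK, RPRD1A, GHITM, VPS35L, AHCYL1, ADNP2, TRMO, KLHL9, MAOA and KIF20B. At PSTK the fold was 19.7 and 20 on soft compared with 18.8 and 21.6 on stiff, from 157, 121, 119 and 155 fragments. At RPRD1A, whose product binds the tail of RNA polymerase II, it was 18.5, 19.0, 20.2 and 20.5. At ADNP2, a homeobox zinc finger gene, it was 17.5, 18.4, 18.2 and 19.0 from 338, 288, 295 and 319 fragments. TRMO, a tRNA methyltransferase gene, had the most fragments of the 10, with 454, 445, 395 and 449. In none of these 10 did the fit between stiff and soft give an adjusted p below 0.748, with differences from -0.11 to 0.12 in log2 fold. A CRE lay at all 4 summits of PSTK and ADNP2, and TGACTCA at those of VPS35L and AHCYL1.

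The 5 marked promoters nearest to the 1000 bp limit were at PTPRE, FOS, TMEM109, CLIC1 and CARD6, with edges 965 to 998 bp from the start. The 5 nearest regions beyond it were at EHBP1L1, STX1A, NALF1, ANKRD13B and NIPAL3, at 1017 to 1021 bp. Fold at the first 5 ran from 4.26 to 11.6 over all libraries, and at the second 5 from 4.11 to 9.22.

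H3K27ac was not used to choose the regions, and it was frequent at them. Of the 5991 marked promoters, 2747 or 45.9% overlapped a peak in both H3K27ac lists (Wilson 95% interval 44.6% to 47.1%). A further 1174 or 19.6% overlapped one in the soft list only and 244 or 4.07% in the stiff list only, and 1826 or 30.5% had none. With 69.5% in at least 1 list, they exceeded the 34.2% of distal p-JUN regions, the 31.3% of promoter p-JUN regions without H3K4me3 and the 14.8% of H3K4me3 promoters without p-JUN. No interval of these shares overlapped that of the marked promoters.

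The soft list was longer, with 18238 peaks against 13322. When the soft list was reduced to its strongest peaks, so that both had the same length, 39.8% of marked promoters were in both, 11% in the soft list only and 10.1% in the stiff list only. With lists of equal length the soft and stiff shares thus lay close together. Regions called in 1 list were also the weaker ones, with a median of 22 H3K27ac fragments at the summit for soft only and 19 for stiff only, against 31 on soft and 26 on stiff for promoters in both.

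H3K27ac was more frequent where p-JUN fold was higher. With the marked promoters split into 4 groups by mean rank of p-JUN fold, from lowest to highest, the share with H3K27ac in both lists was 26.6%, 41.3%, 50% and 65.5%. The 4 groups held 1497 or 1498 regions each and were 803 to 881 bp wide at the median. The bZIP motifs ran the same way, with TGACTCA at all 4 summits in 1.67%, 2.54%, 2.87% and 7.01% and the CRE in 0.467%, 0.601%, 1.54% and 4.81%. These shares describe regions of 1 cell line, and no test was run over the 4 groups. Median p-JUN fragments at the summit did not rise evenly with fold. On soft 1, soft 2, stiff 1 and stiff 2 they were 58, 50.5, 44 and 56 in the lowest group. The second group had 47, 41, 34 and 45, and the third had 57, 50.5, 41 and 53.5. In the highest group they were 95, 85, 70 and 91. H3K27ac was in at least 1 list at 67.3% of regions with TGACTCA, 59.5% with the CRE and 70.5% with neither.

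**Figure D4:**
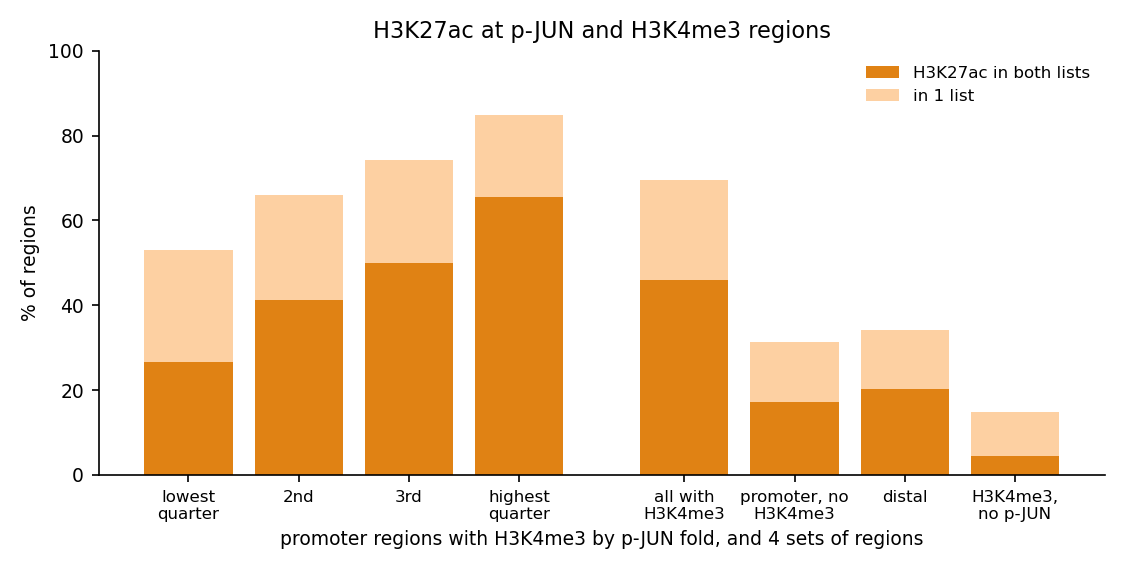
Share of regions that overlap an H3K27ac peak in both merged lists (dark) or in 1 list (light), for marked promoters in 4 groups of rising p-JUN fold (left) and for all marked promoters, promoter p-JUN regions without H3K4me3, distal p-JUN regions and H3K4me3 promoters without p-JUN (right). The share in both lists climbs from 26.6% to 65.5% over the 4 groups and is 45.9%, 17.1%, 20.3% and 4.37% in the 4 sets.

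H3K4me3 took part in the choice of the regions, so its width and strength are given as a description. The comparison is with promoters without any p-JUN peak, and the 2706 with p-JUN but no marked promoter were left out. The 5987 H3K4me3 promoter regions that overlapped a marked promoter had a median width of 1495 bp, against 1059 bp for the 3544 without p-JUN. Their median fragment count at the summit was 198 and 246 on soft, with 263 and 380 on stiff, against 111, 137, 137 and 201. Fold differed less, at 8.74, 8.96, 9.35 and 9.42 against 8.23, 8.51, 8.64 and 8.94. Counts depend on the unknown depth of each library, so they are compared within a library here.

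To compare p-JUN at these promoters between libraries labelled stiff and soft, log2 fold was fitted across all 40433 regions with limma. Each library was first centred on its median. A p-JUN change shared by all regions is removed by this step, so the fit shows only differences relative to other regions. No region passed an adjusted p of 0.05, so the background was 0.0% and no marked promoter was called higher or lower on stiff. At an unadjusted p under 0.05, 112 marked promoters (1.87%) were higher on stiff against 4.94% of all regions, and 395 (6.59%) were lower against 4.54%. These counts moved with the scaling: with no centring 139 (2.32%) were higher against 5.95% and 152 (2.54%) lower against 2.04%, and in fragments 44 (0.734%) were higher against 10.2% and 1574 (26.3%) lower against 13.0%. The lowest adjusted p of a marked promoter in the limma fit of centred log2 fold was 0.381. The median difference of stiff minus soft over the marked promoters was -0.04 in log2 fold, beside -0.01 over all regions. Without stiff replicate 1 this median was -0.02, beside -0.01 over all regions. Without stiff replicate 2 it was -0.06, beside 0.001 over all regions.

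The 5 marked promoters with the highest moderated t were at TCF4, SLC25A23, MAST4, KBTBD2 and DGLUCY. At TCF4, a basic helix-loop-helix factor, fold was 5.31 and 5.67 on soft compared with 8.49 and 8.74 on stiff, a log2 difference of 0.61 ± 0.10 (SE, limma adjusted p = 0.381). At MAST4, a kinase gene, the soft libraries gave 7.85 and 7.58 and the stiff ones 11.4 and 11.6, and fragments were 48 and 46 against 90 and 87. In both genes the stiff libraries lay above the soft ones without overlap, which the choice by moderated t favoured, and neither passed the threshold. By fold, 11.3% of marked promoters and 18.5% of all regions were higher on stiff without overlap.

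The 5 with the lowest moderated t were at ORC4, DHRS4, SMARCAD1, ZSWIM2 and UMAD1. At ORC4, a subunit of the origin recognition complex, fold was 12.0 in both soft libraries and 6.42 and 7.72 on stiff, from 43 and 44 against 20 and 25 fragments (log2 difference -0.81 ± 0.10 SE, limma adjusted p = 0.381). At SMARCAD1, a chromatin remodeller, the soft libraries gave 8.84 and 11.7 and the stiff ones 5.2 and 5.64. These again did not overlap, which the choice favoured, and did not pass. By fold, 24.5% of marked promoters and 21.2% of all regions were lower on stiff without overlap. The fragment counts of this group were small, from 16 to 44 in any library.

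Fragment counts gave a clearer shift than fold. Relative to the other regions called in all 4 libraries, the median log2 fragments of marked promoters were -0.47 and -0.45 on soft, with -0.80 and -0.62 on stiff. The difference of stiff minus soft was -0.25, with no overlap of the groups, and the exact permutation test over the 4 libraries gave p = 0.33, the smallest it can give. After centring each library, 3171 marked promoters (52.9%) had fewer fragments in both stiff than in both soft libraries, against 33.3% of all regions, and 210 (3.51%) had more, against 22.5%. On the fold scale the same counts were 1469 (24.5%) against 21.2% and 679 (11.3%) against 18.5%. The limma fit on log2 fragments called no region at an adjusted p of 0.05, a background of 0.0%, and the lowest adjusted p of a marked promoter was 0.0571. With a replicate block, added after seeing the data, it called 173 marked promoters lower (2.89%, against 1.64% of all regions) and 6 higher (0.1%, against 2.4%). The labels tie libraries of the same number by nothing but that number, and their joint deviation was computed in fold only. The local background moved with the fragments. Its median log2 at marked promoters relative to other regions was -0.30 and -0.27 on soft compared with -0.53 and -0.44 on stiff, and the difference of stiff minus soft in log2 fold, the ratio of both, was -0.06.

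This shift was of similar size across the kinds of marked promoter and moved with base composition. The median difference in log2 fragments was -0.22, -0.21, -0.21 and -0.20 for promoters with H3K27ac in both lists, on soft only, on stiff only and in neither. It was -0.17 with TGACTCA at all 4 summits and -0.22 with the CRE. By the content of G and C within 100 bp of the summit, it went from -0.14 in 391 marked promoters under 50% to -0.19 at 50% to 60%, -0.22 at 60% to 70% and -0.23 in 1731 at 70% or more. Distal p-JUN regions in the same ranges gave 0.01, -0.05, -0.14 and -0.21. Promoter p-JUN regions without H3K4me3 gave 0.03, -0.07, -0.15 and -0.25. At 70% or more, 54.0% of marked promoters, 53.1% of 277 distal regions and 61.8% of 68 promoter regions without H3K4me3 had fewer fragments in both stiff libraries. Marked promoters and distal regions thus lay furthest apart under 50% and close together at 70% or more. The part of base composition in the shift was not tested beyond these values.

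**Figure D5:**
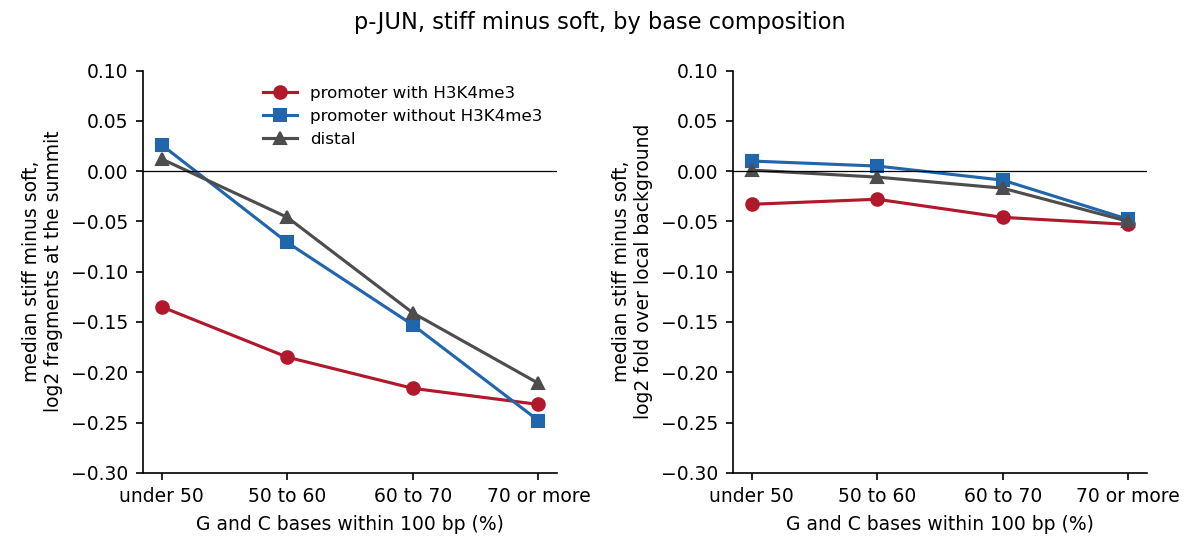
Median difference between stiff and soft p-JUN libraries in centred log2 fragments at the summit (left) and centred log2 fold (right), by the percentage of G and C within 100 bp of the summit, for marked promoters (red circles), promoter p-JUN regions without H3K4me3 (blue squares) and distal regions (grey triangles). In fragments all 3 sets fall with rising G and C, from -0.14, 0.03 and 0.01 to -0.23, -0.25 and -0.21, and in fold all points lie between -0.05 and 0.01.

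H3K4me3 at the same promoters was also compared between stiff and soft, over 16098 regions called in all 4 lists, of which 5908 held a marked promoter. The limma fit on log2 fold called none at an adjusted p of 0.05, a background of 0.0%. At an unadjusted p under 0.05, 214 (3.62%) were higher against 4.35% of all regions and 164 (2.78%) were lower against 5.8%. With no centring 678 (11.5%) were higher against 11.4% and 45 (0.762%) lower against 2.26%, and in fragments 508 (8.6%) were higher against 6.67% and 294 (4.98%) lower against 12.9%. The lowest adjusted p in the limma fit of centred log2 fold was 0.342 and the median difference 0.01. Without stiff replicate 1 that median was -0.01, beside -0.01 over all regions. Without stiff replicate 2 it was 0.02, beside 0.004 over all regions.

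The 5 highest by moderated t were at BHLHE40, HES1, IFIT3, EGR3 and TENM2. At BHLHE40, a repressor of the circadian and hypoxia responses, H3K4me3 fold was 2.5 and 2.62 on soft, with 4.71 and 4.28 on stiff (log2 difference 0.74 ± 0.09 SE, limma adjusted p = 0.342). At HES1, the Notch target, it was 3.3 and 4.1 against 6.28 and 6.3, and at EGR3, an immediate early gene, 4.81 and 5.32 against 7.13 and 7.86. p-JUN fold at BHLHE40 was 5.9, 6.51, 5.52 and 6.21, so the soft and stiff libraries overlapped there. The 5 lowest were at MGAT5B, WASF3, GBP2, CAPS2 and GADD45B. At WASF3, a regulator of actin branching, H3K4me3 fold was 6.17 and 6.19 on soft compared with 4.68 and 4.02 on stiff. At GBP2, an interferon-induced GTPase, it was 9.9 and 10.5 against 8.15 and 8.28, and at IFIT3, also interferon-induced, 6.62 and 6.56 against 9.34 and 9.43. In fragments the difference after centring was negative at both genes, -1.16 at GBP2 and -0.25 at IFIT3 in log2. When fragments were fitted instead of fold, NPPB, which encodes brain natriuretic peptide, and CPA4, a carboxypeptidase gene, passed. NPPB had 24 and 28 H3K4me3 fragments on soft, with 64 and 90 on stiff (log2 difference after centring 1.05, limma adjusted p = 0.0462), and CPA4 had 23 and 29 against 70 and 99 (1.19, limma adjusted p = 0.0348). These were 2 of 4 regions called higher (a background of 0.0248%), none of the 6 called lower (0.0373%) was a marked promoter, and neither was called when any 1 library was left out or with a replicate block. H3K4me3 fold at NPPB was 7.54, 7.51, 7.88 and 8.29.

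The marked promoters served 6685 of the 19794 protein-coding genes, or 33.8%. Of the 12161 genes with an H3K4me3 region at a start and no H3K27me3, 6672 or 54.9% had one. That share is the background for the gene lists that follow, which were written with earlier results of these data known. Several marked promoters served more than 1 gene: 1044 were near the starts of at least 2 genes and 923 (15.4%) had starts on both strands. In turn, 383 genes had 2 or more of them.

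Marked promoters were at 25 of 31 genes of the unfolded protein response with H3K4me3 (80.6%), 12 of 16 AP-1 family genes (75%), 20 of 27 immediate early genes (74.1%), 34 of 46 splicing factor genes (73.9%) and 27 of 37 DNA repair genes (73.0%). YAP targets followed with 16 of 23 (69.6%), the cell cycle with 24 of 36 (66.7%), aminoacyl tRNA synthetases with 13 of 20 (65.0%), the contractile cytoskeleton with 20 of 31 (64.5%) and the TGF-beta pathway with 19 of 31 (61.3%). Near the background were fibrosis and matrix genes with 20 of 35 (57.1%), the proteasome with 17 of 31 (54.8%), ribosomal proteins with 42 of 79 (53.2%), integrins and focal adhesion with 17 of 32 (53.1%), oxidative phosphorylation with 26 of 50 (52.0%) and the JNK and p38 cascade with 13 of 27 (48.1%). In each list the genes counted had an H3K4me3 region at a start and no H3K27me3. With so few genes a list, these shares are described and were not tested.

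The label of the cells was set against marker genes. Marked promoters were at none of 8 hepatocyte, 6 macrophage and 4 endothelial genes, and among 4 cholangiocyte genes at SOX9, a transcription factor gene. None of the hepatocyte and macrophage genes had an H3K4me3 region at a start, and 1 endothelial gene did. Of 14 stellate cell and fibroblast genes, COL1A1, ACTA2, VIM, SPARC, TIMP1 and TAGLN had a marked promoter. These are 6 of the 8 with an H3K4me3 region at a start and no H3K27me3 (75%). Over all protein-coding genes of that kind the share was 54.9%. H3K4me3 without regard to H3K27me3 was at 9 genes of the list, and H3K27me3 at 3. COL1A2, COL3A1, PDGFRB, DES, LRAT, RELN, HGF and THY1 had none. The share of the whole list was 42.9%, beside 33.8% of all protein-coding genes.

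Proteasome promoters had a high median rank by p-JUN fold and immediate early promoters a low one, with wide overlap between the 2 lists. At the 17 proteasome promoters, median fold was 9.83 and 9.86 on soft compared with 9.76 and 10.9 on stiff, from 70, 66, 53 and 77 fragments. Their median rank was at 80.5% of all marked promoters, with a range from 22.2% to 98.4%, and 16 of 17 overlapped H3K27ac in at least 1 list. At the 26 of oxidative phosphorylation, the median rank was 71.9%, and 25 of 26 had H3K27ac. At the 25 regions of immediate early genes, median fold was 5.17, 5.41, 5.05 and 5.54, but from 137, 124, 107 and 132 fragments. Their median rank by fold was 15.6%, with a range from 0.16% to 87.7%, and 10 of 25 had H3K27ac. The median of immediate early promoters was thus higher in fragments and lower in fold than that of proteasome promoters in each of the 4 libraries, a difference that was not tested. Over all marked promoters, H3K27ac was in at least 1 list at 69.5%.

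AP-1 genes were spread widely. JUN had 524 and 472 fragments on soft, with 449 and 558 on stiff, at fold 11, 11.1, 11.6 and 13.0, with H3K27ac in both lists. Its difference of stiff minus soft was 0.11 ± 0.09 in log2 fold (SE, limma adjusted p = 0.778). ATF3, the stress-induced partner, had fold 10.7, 11.8, 11 and 12.0, and ATF7 13.5, 15.1, 14.1 and 17.7. FOS had fold 4.89, 4.89, 4.26 and 4.76 from a region whose edge was 978 bp from the start, with no H3K27ac, and FOSL1 4.14, 4.25, 4.26 and 4.34 from 245, 222, 207 and 260 fragments. Fold in soft and stiff overlapped at ATF3 and ATF7, while both stiff values at JUN lay above both soft ones. MAFG, a small MAF gene, was the member of this family with TGACTCA at all 4 summits, from 156, 141, 118 and 149 fragments. None of the 13 regions had an unadjusted p under 0.05 in fold, beside 8.46% of all marked promoters.

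Matrix genes had a median rank of 21.7% by fold. Their median fragments were 80, 77, 58 and 82, above the 62, 54, 45 and 59 of all marked promoters. COL1A1, a chain of type I collagen, had fold 4.34 and 3.98 on soft compared with 3.36 and 4.19 on stiff, from 161, 121, 106 and 154 fragments, and H3K27ac on stiff only. FN1, which encodes fibronectin, had 5.81, 6.81, 4.99 and 7.04. THBS2, a thrombospondin gene, was the highest of the list with 9.33, 10, 9.29 and 10.7. P4HA2, a subunit of the enzyme that hydroxylates collagen, held TGACTCA at all 4 summits, with 147, 119, 100 and 113 fragments. Of these 21 regions 15 overlapped H3K27ac. None had an unadjusted p under 0.05, beside 8.46% of all marked promoters and 9.48% of all regions. The median difference was -0.04 in log2 fold, like that of all marked promoters.

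TGACTCA lay at all 4 summits in 4 of 22 regions of contractile genes, beside 3.52% of all marked promoters. VIM, the intermediate filament gene, had 509 and 429 fragments on soft, with 380 and 427 on stiff, at fold 10.2, 9.82, 10.2 and 10.1. ZYX, which encodes zyxin of focal adhesions and stress fibres, had 384, 332, 281 and 356 fragments and H3K27ac on stiff only. VCL had 287, 220, 245 and 257 at the region with the motif, and TAGLN2, a relative of transgelin, 411, 364, 331 and 393. At these 4 the soft and stiff fold overlapped. MYL6, a myosin light chain gene, held the CRE, with fold 8.0 and 7.83 on soft compared with 8.53 and 8.35 on stiff. ACTA2, the smooth muscle actin that marks activated stellate cells, had 29 and 34 fragments on soft, with 22 and 29 on stiff, and H3K27ac on soft only. Its difference was -0.05 ± 0.13 in log2 fold (SE, limma adjusted p = 0.952). None of the 22 regions had an unadjusted p under 0.05, beside 8.46% of all marked promoters and 9.48% of all regions.

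YAP targets and TGF-beta pathway genes had median ranks of 25.5% and 39.1% by fold. Median fragments were 87, 79, 69 and 92 for YAP targets and 64, 53, 44 and 61 for the TGF-beta pathway. Those of all marked promoters were 62, 54, 45 and 59. ANKRD1, a muscle ankyrin and YAP target, had fold 12.4 and 14 on soft compared with 12.3 and 15.1 on stiff, and its fragments were 207, 200, 187 and 309. F3, tissue factor, had 10.4, 10.5, 10.5 and 11, with TGACTCA at all 4 summits. CCN2, the connective tissue growth factor gene, had 3.4, 3.87, 3.86 and 3.26 and no H3K27ac. TGFBR2, the type II receptor, was the highest of its pathway with 11.3, 12.3, 10.8 and 13.8 and had no H3K27ac, while TGFBR1 had 9.69, 9.49, 8.85 and 9.82. SKIL and ID1, a SMAD corepressor and a SMAD target, held the CRE. None of the 19 YAP regions and 1 of the 19 TGF-beta regions, at the inhibitory SMAD6, had an unadjusted p under 0.05. That share was 8.46% of all marked promoters and 9.48% of all regions. Fold at SMAD6 was 5.84 and 5.56 on soft, with 4.82 and 5.1 on stiff (log2 difference -0.25 ± 0.09 SE, limma adjusted p = 0.497).

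In the unfolded protein response, 3 of 28 regions (10.7%) had an unadjusted p under 0.05, beside 8.46% of all marked promoters and 9.48% of all regions. All 3 were lower on stiff, as were 395 of the 507 among all marked promoters. CALR, the calreticulin gene, had fold 7.12 and 7.6 on soft compared with 6.32 and 5.48 on stiff. ATF6B had 7.4 and 8.43 against 6.08 and 7.29, and DNAJB9, a chaperone of the endoplasmic reticulum, 12.3 and 11.1 against 9.84 and 10.4. Their adjusted p in the limma fit were 0.481, 0.497 and 0.502. EIF2AK3, the PERK kinase gene, had 11.5, 11.4, 11 and 11.8 at its stronger region, with overlap of soft and stiff.

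In the cell cycle list 4 of 30 regions had such a p, all lower on stiff, at CDK1, AURKB, CDC25C and E2F3. AURKB, a mitotic kinase, had 8.4 and 9.1 on soft, with 7.16 and 7.57 on stiff. In the JNK and p38 cascade 1 of 14 did, at TRAF6, a ubiquitin ligase upstream of JNK, with 7.9 and 7.76 on soft compared with 9.22 and 11.6 on stiff (log2 difference 0.36 ± 0.11 SE, limma adjusted p = 0.431). In the remaining lists the counts were 2 of 43 regions for ribosomal proteins, 2 of 17 for the proteasome, 0 of 13 for tRNA synthetases, 2 of 26 for oxidative phosphorylation, 2 of 36 for splicing factors, 1 of 25 for immediate early genes, 2 of 21 for integrins and focal adhesion, 2 of 29 for DNA repair and 0 of 7 for stellate cell genes. Over all marked promoters 507 of 5991 (8.46%) had one, beside 9.48% of all 40433 regions. In fragments the median difference was below 0 in each of the 16 pathway lists, from -0.28 for the JNK and p38 cascade to -0.14 for tRNA synthetases, around the -0.21 of all marked promoters.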

How the data were processed

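CUT&Tag peak lists of 14 samples were used, with groups and replicates taken from the labels. Per the labels, reads were trimmed with Trim Galore, aligned to hg19 with Bowtie2 and passed through Picard. Peak names in the deposited files name MACS2, with its version not given in the sources used here, and the lowest −log10 q-value in these lists was 5.0 to 5.25 for p-JUN and H3K4me3. For p-JUN, H3K4me3 and H3K27me3 the authors deposited 1 list per library, and for H3K27ac 1 list per matrix that is named as merged, with the way of merging not given in the sources used here. The deposited lists give, for each peak, the fold enrichment over local background (a ratio), the −log10 p-value and the −log10 q-value. The deposited files also hold a display score written by the authors' peak caller, which was not used. The lists give no read totals, so the depth of a library is unknown. Its nearest measure is the median summit count, 60 to 64 fragments in the p-JUN and 120 to 207 in the H3K4me3 lists.

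Members, gene lists and motifs were chosen with earlier results of these data known. Summit fragments were solved from the fold and p-value of a Poisson model with 1 pseudocount and came out whole within a relative error of 0.0001 for 100.0% of p-JUN and H3K4me3 peaks. Where a region held several peaks of a library, the peak with the highest fold stood for it. Starts and exons were from GENCODE on GRCh37, on 24 chromosomes, whose lengths hold every peak. log2 fold, and log2 of fragments plus 1, were centred on the library median over regions called in all 4 libraries and fitted with limma 3.58.1 in R 4.3.3, with Benjamini-Hochberg adjustment over all regions. Filtering to regions called in all libraries leaves out regions lost on 1 matrix. Shares have Wilson 95% intervals. Named regions were the 10 of highest mean rank, 5 on each side of the 1000 bp limit, the 5 highest and lowest by moderated t in each fit, the 5 motif regions of highest rank, and those at list genes. NPPB and CPA4 were named after their values were seen, and the grouping by G and C was added after seeing the data. Scripts were tested on simulated data.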

Additional observations from a re-analysis of the deposited data

How the results depend on the processing

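The number of marked promoters, their genes, and the absence of calls on the fold scale kept within 1.5 times or on the same side of the threshold under all alternatives run, which left 5991 to 6747 marked promoters when 1 library was left out. H3K27ac in both lists went from 45.9% to 39.8% with lists of equal length, 31.9% at a −log10 q of at least 10 and 24.6% where 50% of a region had to be covered. Soft only went from 19.6% to 11% with equal length and 18.0% with 50% covered, and stiff only from 4.07% to 10.1% with equal length. With 1 p-JUN library left out, the share in both ran from 43.1% to 45.6%, that of TGACTCA from 5.61% to 6.41% and that of the CRE from 2.8% to 3.23%, each lowest without stiff replicate 1. TGACTCA was at 9.28% within 100 bp of the summit, 5.79% with a limit of 500 bp to the start and 6.6% at a −log10 q of at least 10, and the CRE at 4.48% within 100 bp and 3.44% at that q. Marked promoters minus other regions was -0.24 in log2 fold and -0.58 in fragments. The median p-JUN difference of -0.04 became 0.0004 with no centring and -0.21 in fragments, where it ran from -0.27 to -0.15 with 1 library left out. In fold it then ran from -0.06 to -0.02. The median H3K4me3 difference of 0.01 became 0.0822 with no centring and 0.041 in fragments, and ran from -0.0101 without stiff replicate 1 to 0.0231 without stiff replicate 2. H3K4me3 fragments called 2 marked promoters higher. In log2 fold, libraries with the same replicate number did not deviate together (correlation 0.00468 for p-JUN and -0.0501 for H3K4me3). The same was not computed for fragments. A replicate block called 0 in fold for both targets, with a lowest adjusted p of 0.224 for p-JUN. The replicate block with p-JUN fragments, chosen after seeing the data, called 6 marked promoters higher (0.1%) and 173 lower (2.89%), and 969 (2.4%) and 663 (1.64%) over all regions, where fragments without the block called 0 and 0. Unadjusted counts changed with the scaling, as given beside them. Where no cause is named, the cause was not tested. The lists give no depth, so a region missing from a list may be below its threshold and not without signal.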
